A study of Homo sapiens with 6 samples.

Results

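The immediate early genes and the AP-1 genes described here are 36 genes taken by symbol: the Fos and Jun families, the EGR, IER, KLF and NR4A factors, small MAF proteins, dual-specificity phosphatases, RNA decay factors and a group of activity-induced genes. All 36 were found among the 26485 gene symbols of the count table. Of these, 35 had enough counts to be tested, among 16199 tested genes in all, and KLF2 did not. RNA was sequenced from 6 cultures of EndoC-βH1, an established human pancreatic beta cell line that secretes insulin. Every culture had been transduced with lentiCRISPRv2, a lentiviral vector that carries Cas9 and an antibiotic resistance gene, and kept as a selected stable line. In 3 libraries the vector held no guide (labelled Empty, genotype WT), and in the other 3 it held 1 guide against the first coding exon of ZHX3 (labelled sgZHX3-3, genotype ZHX3 KO). Each group has biological replicates 1 to 3 by title, but separate lines and repeat cultures are not distinguished, so the p-values may measure only the spread between cultures. No stimulus, glucose level or time after a medium change is given in the labels.

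Immediate early genes are transcribed within minutes of a stimulus from transcription factors that are already present, so they need no new protein synthesis. In beta cells calcium entry, cyclic AMP and the ERK kinases drive them, largely through CREB bound at cyclic AMP response elements (CREs) and through SRF with its partners bound at CArG boxes. Many of their products are transcription factors, such as the Fos and Jun proteins that pair to form AP-1, while others switch the response off by removing phosphate from kinases or by degrading short-lived RNAs.

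Promoters of 4 genes that were lower in the libraries labelled sgZHX3-3 are shown first, since these genes come from 3 families and carry the elements through which the response is known to run. Each sequence is the RefSeq window from 250 bases before to 50 bases after the gene's start on GRCh38.p14, written 5′ to 3′ on the gene's own strand. Capitals mark CRE half-sites (TGACG on either strand), full CREs (TGACGTCA, which holds the half-site on both strands), CArG boxes, TATAAA and CCAAT. The FOS window lies at chr14:75278578-75278877, the FOSB window at chr19:45467746-45468045, the EGR1 window at chr5:138465229-138465528 and the NPAS4 window at chr11:66420754-66421053, all on the plus strand.
FOS: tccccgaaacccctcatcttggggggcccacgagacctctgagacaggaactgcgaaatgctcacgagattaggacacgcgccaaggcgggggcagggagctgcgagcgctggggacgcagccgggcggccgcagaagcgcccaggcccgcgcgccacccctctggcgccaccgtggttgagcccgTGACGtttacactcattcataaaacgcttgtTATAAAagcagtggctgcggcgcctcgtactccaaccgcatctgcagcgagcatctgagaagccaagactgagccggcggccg
FOSB: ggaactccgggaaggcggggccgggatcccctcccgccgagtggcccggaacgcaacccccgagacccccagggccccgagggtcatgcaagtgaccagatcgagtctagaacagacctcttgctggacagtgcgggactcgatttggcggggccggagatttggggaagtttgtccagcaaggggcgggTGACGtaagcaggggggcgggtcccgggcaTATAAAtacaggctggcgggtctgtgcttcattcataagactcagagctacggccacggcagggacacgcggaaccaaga
EGR1: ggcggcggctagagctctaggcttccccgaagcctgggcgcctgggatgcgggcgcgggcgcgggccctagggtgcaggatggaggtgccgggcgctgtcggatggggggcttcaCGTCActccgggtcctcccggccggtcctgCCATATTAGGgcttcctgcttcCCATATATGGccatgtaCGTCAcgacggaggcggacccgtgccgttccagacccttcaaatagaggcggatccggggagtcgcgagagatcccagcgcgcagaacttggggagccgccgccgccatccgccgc
NPAS4: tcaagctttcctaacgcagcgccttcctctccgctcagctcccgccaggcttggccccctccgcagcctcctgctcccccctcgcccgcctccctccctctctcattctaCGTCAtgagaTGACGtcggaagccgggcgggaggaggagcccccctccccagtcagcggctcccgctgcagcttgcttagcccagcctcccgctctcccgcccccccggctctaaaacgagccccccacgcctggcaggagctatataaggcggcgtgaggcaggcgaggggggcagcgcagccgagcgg

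FOS and FOSB each had 1 CRE half-site, at 64 and 60 bases before the start, and a TATA box at 33 and 30 bases before it. EGR1 had 2 CArG boxes, whose first bases lie 105 and 83 bases before the start, and 2 CRE half-sites. NPAS4 had 2 CRE half-sites, starting 140 and 130 bases before the start. RefSeq windows were matched for 29 of the 36 genes. The CRE half-site was present in 18 of these 29 windows, in 8 of the 10 windows of genes called lower, in 10 of the 18 windows of genes tested and not called, and in 25.0% of all 27305 windows of this length. The CCAAT box, which the NF-Y complex binds, was present in 12 of the 29 windows, in 3 of the 10 windows of genes called lower, in 9 of the 18 of genes not called, and in 35.7% of all windows. The full CRE was present in 4 of the 29 windows (DUSP1, DUSP8, JUND and MAFF) and in 1.98% of all windows. Of the 29 windows only that of EGR1 held a CArG box, which was present in 1.29% of all windows. The windows reach only 250 bases before the start. An element farther upstream, in FOS or any other gene, was not searched for, so a window without a match does not mean a gene without the element. A match is a string of letters and not a measured binding site.

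Total counts ran from 45101454 to 61051884 per library. Empty 1 stood apart within its group: the mean chi-square per gene was 23.3 between Empty 1 and Empty 2 and 22.3 between Empty 1 and Empty 3, against 3.63 between Empty 2 and Empty 3. By this measure Empty 1 was nearer to libraries 1 and 2 labelled sgZHX3-3 (18.9 and 21.5) than to its own group, and at 28.9 from library 3. Empty 2 and Empty 3 were at 23.8 to 63.9 from the libraries labelled sgZHX3-3. Within the group labelled sgZHX3-3 library 3 stood apart, at 21.4 from library 1 and 12.9 from library 2, against 4.56 between libraries 1 and 2. The calls of the immediate early genes are therefore given with and without these libraries. Values of the marker genes and of the further gene lists are given with all libraries only. RNA of the targeted gene ZHX3 was higher and not lower in the libraries labelled sgZHX3-3, at 167, 180 and 183 CPM (counts scaled to library size) against 106, 110 and 101 CPM, so the label does not mean less ZHX3 RNA. The groups are therefore called by their labels, and every direction below is drawn from those labels. A small insertion or deletion need not lower an RNA, so its level checks the label only in part. Each of the 13 beta cell markers passed the filter and had a fold change above 0, and of them 7 rose and 0 fell by edgeR and by DESeq2. These 7 are 53.8%, where 7.11% of all tested genes were higher by edgeR and 8.25% by DESeq2. Among the 7 were IAPP (0.61, adjusted p = 0.0113), the islet amyloid hormone, and MAFA. INS, at 5206 to 7118 CPM, was not called (0.19, adjusted p = 0.219). The summed level of these markers was 32033 to 40152 CPM in Empty, highest in Empty 1, and 37210 to 45304 CPM in the other group. Of 6 exocrine markers 3 passed the filter. KRT19 had 2277 to 3195 counts per library and CPA1 1647 to 2721, whereas CEL had 61 to 109. The summed level of the list was 81.9 to 91.9 CPM in Empty and 94.5 to 100.2 CPM in the other group. KRT19 and CPA1 made up most of it, and PNLIP was at 0 in every library. Of 7 markers of other islet cells 6 passed, with 77.5 to 87.8 CPM against 67.6 to 76.6 CPM, and GCG was at no more than 0.403 CPM. By edgeR 1 of these 6, IRX2, fell (−0.34, adjusted p = 0.00728), or 16.7% against 4.98% of all tested genes. Of 8 stromal, endothelial and immune markers 4 passed, with 19.2 to 23.7 CPM against 25.8 to 27.6 CPM, mostly CD68 and COL1A1, and edgeR called none of these 4. PECAM1 stayed at or below 0.0407 CPM and PTPRC at or below 0.0855 CPM. The part of these marker levels in the results was not tested.

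Immediate early genes were mostly lower in the libraries labelled sgZHX3-3. The 10 genes that fell were NPAS4, FOSB, GADD45B, DUSP10, FOS, DUSP1, MAFF, SIK1, EGR1 and IER2, and 1 gene rose, ZFP36L2. The 10 are 28.6% of the 35 tested (edgeR, adjusted p below 0.05), whereas 4.98% of all tested genes were lower; 7.11% of all tested genes were higher. DESeq2 called 15 lower, against 5.97% of all tested genes, and 1 higher, against 8.25%. The 13 beta cell markers moved the other way, with 7 called higher. The median log2 fold change of the 35 was −0.22, against −0.0020 for all tested genes, and 27 of the 35 lay below 0, as did 50.5% of all tested genes. The groups did not overlap, with the libraries labelled sgZHX3-3 lower, for 15 of the 35, where this held for 16.0% of all tested genes. They did not overlap in the other direction for FOSL2 and ZFP36L2 alone, where the background is 16.0% as well. The genes were chosen with earlier results of these data known, so no test of the list as a whole was made. In bulk RNA fewer cells that express a gene and less of its RNA per cell cannot be told apart. The plot of fold changes by family shows that the falls were spread over 6 of the 10 families.

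**Figure D1:**
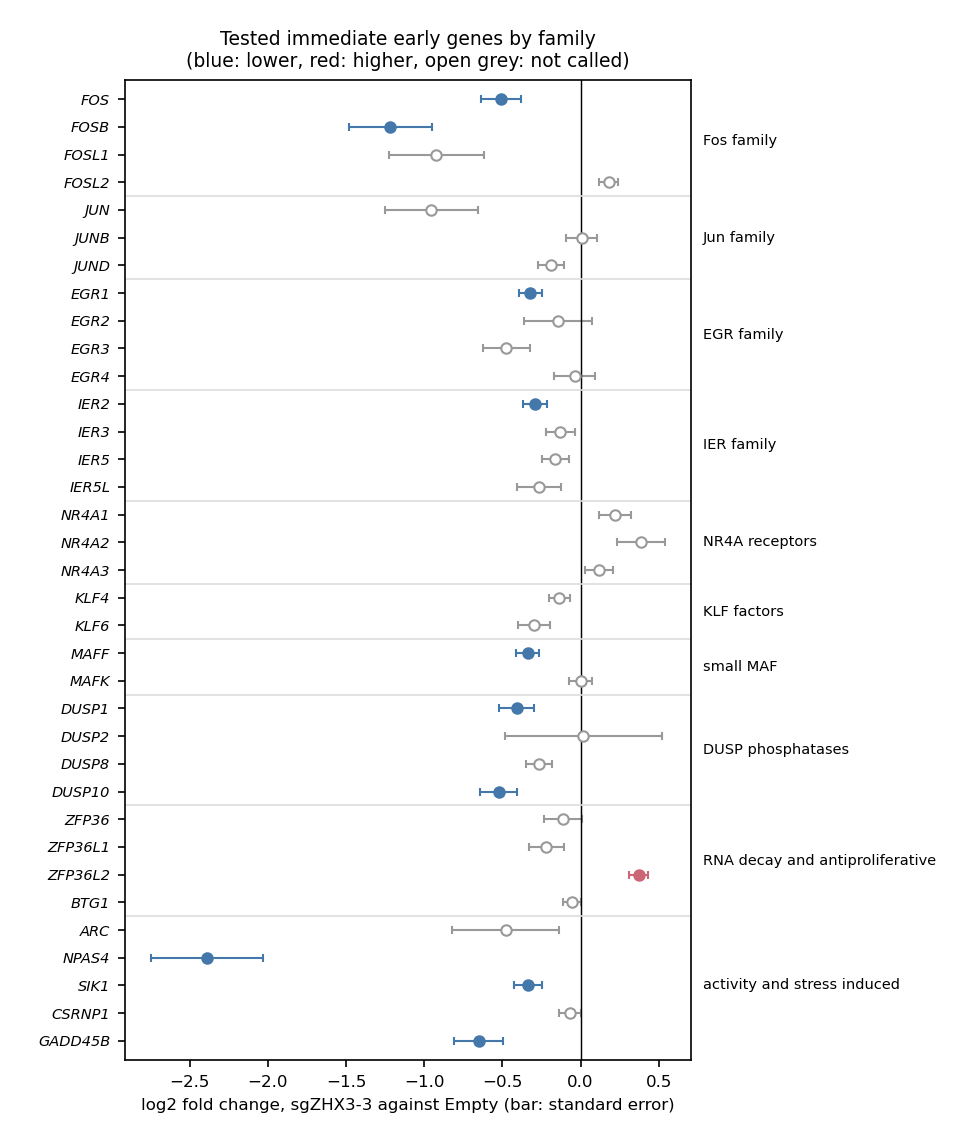
Log2 fold change between the libraries labelled sgZHX3-3 and Empty (x axis) for the 35 tested genes, grouped by family, with the standard error as a bar. Blue points were called lower, the red point higher and open grey points were not called at an adjusted p of 0.05; NPAS4 at −2.39 lies farthest to the left and ZFP36L2 at 0.37 is the called rise.

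The Fos proteins are the AP-1 partners that cannot pair with each other and bind DNA only with a Jun protein. FOS was at 38.0, 48.7 and 58.7 CPM in Empty 1, 2 and 3 and at 34.8, 33.8 and 33.6 CPM in the libraries labelled sgZHX3-3. The latter lay within a narrow range, below each Empty library, and Empty 1 was the nearest to them. The log2 fold change was −0.51 with a standard error of 0.126 (adjusted p = 0.0284). FOSB, which like FOS carries a strong activation domain in its full-length form, went from 2.74, 4.39 and 5.87 CPM to 1.36, 1.82 and 2.34 CPM, without overlap and with Empty 1 again lowest among its group. It fell by 1.22 on the log2 scale, with a standard error of 0.267 (adjusted p = 0.0156). FOSB lies wholly within ERCC1 on the opposite strand. Whether the counting used strand is unknown here; ERCC1 itself was at −0.08 (adjusted p = 0.548). FOSL1, an AP-1 subunit linked to growth factor and MAPK signalling, was at 0.855, 1.30 and 1.65 CPM against 0.380, 0.782 and 0.813 CPM. Its groups did not overlap, but at 17 to 81 counts per library it did not pass (−0.92, adjusted p = 0.0644). FOSL2, which lacks the strong activation domain of FOS, was the exception to the direction: it was at 37.0, 40.0 and 41.8 CPM against 45.7, 44.4 and 44.5 CPM. All 3 libraries labelled sgZHX3-3 were above all Empty libraries, yet the difference of 0.18 did not pass (adjusted p = 0.0810).

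Jun proteins pair with Fos or with themselves. JUN, the founding member and the strongest activator among them, was at 86.4, 145 and 184 CPM in Empty 1, 2 and 3 and at 71.7, 74.9 and 67.9 CPM in the libraries labelled sgZHX3-3. The groups did not overlap. Empty 3 was far above Empty 1, and the log2 fold change of −0.96 had a standard error of 0.296 and did not pass (adjusted p = 0.118). DESeq2 called it (adjusted p = 0.0145), and so did edgeR without Empty 1 (−1.20, adjusted p = 4.75e-06). JUNB, which can restrain JUN activity, was at 76.0, 65.0 and 79.2 CPM against 65.5, 70.2 and 85.3 CPM, with the groups intermixed (0.01, adjusted p = 0.973). JUNB lies within HOOK2 on the opposite strand, at −0.03 itself (adjusted p = 0.865). JUND, the most constitutive of the family, was at 209, 189 and 218 CPM against 161, 174 and 205 CPM and did not pass (−0.19, adjusted p = 0.154), although without sgZHX3-3 library 3 it did (−0.30, adjusted p = 0.0236). None of the 3 Jun genes was thus called by edgeR, 2 had an unadjusted p below 0.05, both lower, and DESeq2 called 1. The share of all tested genes below that unadjusted p was not counted.

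EGR factors are zinc-finger activators downstream of ERK and SRF, and 1 of 4 fell. EGR1, which in beta cells is induced by glucose and calcium entry, was at 90.4, 86.3 and 102 CPM in Empty and at 70.6, 71.3 and 80.8 CPM in the libraries labelled sgZHX3-3. The groups did not overlap, and here Empty 2 and not Empty 1 was lowest in its group. It fell by 0.32 on the log2 scale with a standard error of 0.0729 (adjusted p = 0.0142). EGR3 was at 3.16, 3.97 and 4.17 CPM against 2.48, 2.53 and 3.10 CPM, without overlap, and just missed the threshold (−0.47, adjusted p = 0.0582). EGR2, at 0.941 to 1.53 CPM, and EGR4, at 2.98 to 3.63 CPM, overlapped between the groups (−0.15 and −0.04).

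IER genes are named as immediate early response genes, and 1 of 4 fell. IER2 was at 68.3, 66.1 and 80.8 CPM in Empty and at 56.2, 57.9 and 61.7 CPM in the libraries labelled sgZHX3-3. All libraries of the second group were below all Empty libraries, with a log2 fold change of −0.29 (standard error 0.0751, adjusted p = 0.0255). IER2 overlaps an antisense gene over 1123 bases, and the reads of both cannot be told apart without the strand setting. The survival regulator IER3 (−0.13), IER5 (−0.16), which is a target of heat shock factor HSF1, and IER5L (−0.27) did not pass, with adjusted p from 0.234 to 0.385. IER5L nevertheless had no overlap between the groups.

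The largest relative fall was in NPAS4, a transcription factor induced by calcium entry in neurons and, by membrane depolarisation, in beta cells. NPAS4 was at 0.684, 1.62 and 1.65 CPM in Empty 1, 2 and 3 and at 0.268, 0.221 and 0.266 CPM in the libraries labelled sgZHX3-3. These levels rest on 32, 96 and 81 counts against 12, 11 and 16 counts, so the gene was scarce in every library, and Empty 1 lay between the others and the second group. It fell by 2.39 on the log2 scale with a standard error of 0.361 (adjusted p = 0.00132), and with any 1 library left out it lay between −2.68 and −2.21. ARC, a synaptic immediate early gene with a retroviral-like capsid, was at 4.02, 6.47 and 10.02 CPM against 3.87, 4.49 and 6.24 CPM, and the groups overlapped (−0.48, adjusted p = 0.424).

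SIK1, a kinase induced by CREB that phosphorylates the CREB coactivators and so limits the response, had the most even Empty libraries of the genes that fell. It was at 11.9, 10.8 and 11.4 CPM against 9.46, 9.10 and 8.43 CPM, with Empty 1 the highest (−0.34, adjusted p = 0.0271). GRCh38 holds a near-identical copy of this gene, SIK1B, so reads may be split between them and the count is uncertain. GADD45B, a stress sensor that binds the kinase MTK1 and promotes demethylation, was at 9.79, 13.0 and 16.6 CPM against 7.90, 8.72 and 8.41 CPM. The groups did not overlap, and it fell by 0.65 on the log2 scale with a standard error of 0.154 (adjusted p = 0.0196). CSRNP1, an AXIN1-induced nuclear factor, was at 50.3 to 53.9 CPM in Empty and 46.3 to 54.7 CPM in the other group and did not pass (−0.07).

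**Figure D2:**
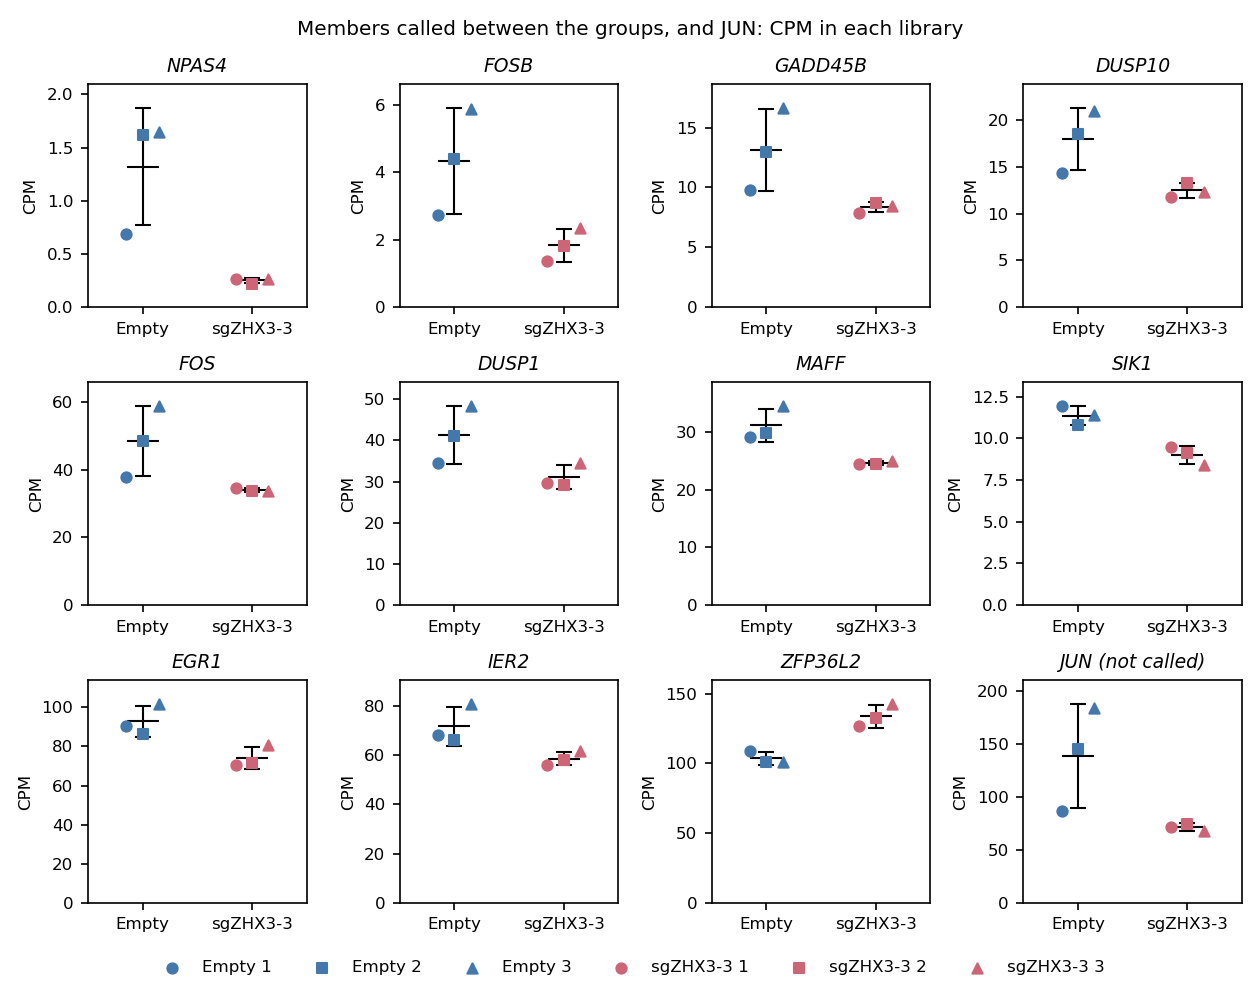
CPM (y axis, from 0) in each library for the 11 called genes in order of fold change and for JUN, which was not called; symbols mark replicate numbers, the horizontal bar is the mean and the error bar the SD (n = 3). In NPAS4, FOSB, GADD45B, DUSP10, FOS, DUSP1 and MAFF, and in JUN, Empty 1 is the lowest Empty library, while in SIK1 it is the highest.

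Nuclear receptors of the NR4A family, which act without a known physiological ligand and support beta cell gene expression and growth, lay on the opposite side from most of the set. NR4A1 was at 40.5, 31.1 and 34.5 CPM in Empty and at 37.9, 38.9 and 46.5 CPM in the libraries labelled sgZHX3-3 (0.22, adjusted p = 0.170). NR4A2 was at 9.08, 7.22 and 6.78 CPM against 7.88, 9.93 and 12.2 CPM (0.39, adjusted p = 0.120), and NR4A3 at 10.1 to 11.6 CPM against 11.1 to 12.4 CPM (0.12, adjusted p = 0.410). All groups overlapped, edgeR and DESeq2 called none of the 3, and 2 of them, NR4A1 and NR4A2, had an unadjusted p below 0.05. How many of all tested genes reached that unadjusted p was not counted. Without Empty 1 both were called higher by edgeR (NR4A1 at 0.33, adjusted p = 0.0223, and NR4A2 at 0.53, adjusted p = 0.0291), and NR4A2 also without sgZHX3-3 library 1 (0.53, adjusted p = 0.0356).

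Among the remaining transcription factors 1 of 4 tested genes fell, the small MAF protein MAFF, a bZIP protein that lacks an activation domain and pairs with NRF2 or BACH1. MAFF was at 29.1, 29.9 and 34.5 CPM in Empty and at 24.5, 24.4 and 25.1 CPM in the libraries labelled sgZHX3-3, without overlap (−0.34, standard error 0.0746, adjusted p = 0.0125). It overlaps PLA2G6 on the opposite strand, which was at 0.15 (adjusted p = 0.238). Its relative MAFK had nearly the same mean in both groups, 25.2 ± 0.824 CPM (SD, n = 3) and 25.2 ± 1.93 CPM (SD, n = 3), with a log2 fold change of 0.0015 and a standard error of 0.0731. MAFK overlaps TMEM184A on the opposite strand over 809 bases, and TMEM184A was called higher (0.31, adjusted p = 0.0128). Without the strand setting their reads in the overlap cannot be told apart. The zinc-finger factors KLF6 (−0.30, adjusted p = 0.0786) and KLF4 (−0.14, adjusted p = 0.224) did not pass. KLF6 was at 36.9, 46.4 and 50.2 CPM against 38.5, 37.4 and 32.7 CPM, so that Empty 1 lay inside the range of the second group. KLF2, which is typical of endothelial and lymphoid cells, had 1 to 3 counts per library and was not tested.

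Dual-specificity phosphatases remove phosphate from MAP kinases and so end the signal that induces many of the genes above, and 2 of 4 fell. DUSP1, which acts on p38, JNK and ERK in the nucleus, was at 34.4, 41.1 and 48.3 CPM in Empty and at 29.76, 29.03 and 34.42 CPM in the libraries labelled sgZHX3-3. It was the called gene whose groups touched: Empty 1 was at 34.39 CPM and library 3 of the other group at 34.42 CPM. It fell by 0.41 on the log2 scale (adjusted p = 0.0340). An antisense gene covers DUSP1 over its whole length of 3106 bases. DUSP10, which prefers p38 and JNK, was at 14.4, 18.5 and 20.9 CPM against 11.8, 13.3 and 12.3 CPM, without overlap, and fell by 0.52 (standard error 0.117, adjusted p = 0.0135). DUSP8, also a JNK and p38 phosphatase, was at 72.6, 73.3 and 84.7 CPM against 56.3, 66.1 and 69.5 CPM. It did not overlap between the groups and missed the threshold (−0.26, adjusted p = 0.0549); without sgZHX3-3 library 3 it passed (−0.33, adjusted p = 0.0438). DUSP2, a nuclear phosphatase, at 7 to 22 counts per library, had a standard error of 0.502 on a log2 fold change of 0.02, so a change within that error was not detectable at this depth.

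ZFP36L2 was the called rise, while none of its relatives passed. The ZFP36 proteins bind AU-rich elements and bring short-lived RNAs, among them those of immediate early genes, to decay. ZFP36L2 was at 109, 101 and 101 CPM in Empty and at 126, 132 and 143 CPM in the libraries labelled sgZHX3-3. The groups did not overlap, and the difference was 0.37 with a standard error of 0.0600 (adjusted p = 0.00195). ZFP36 was at 11.7, 14.2 and 17.6 CPM against 13.6, 13.2 and 13.5 CPM, and the second group lay inside the range of the first (−0.11, adjusted p = 0.580). ZFP36L1 was at 6.46, 7.03 and 8.21 CPM against 6.42, 6.02 and 6.21 CPM, and its groups did not overlap, by a small margin (−0.22, adjusted p = 0.213). BTG1, which recruits the deadenylase complex and restrains proliferation, was at 567 to 651 CPM in Empty and 558 to 589 CPM in the other group (−0.06, adjusted p = 0.574).

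Per kilobase of exon (GENCODE 29), the set spanned a wide range of levels, and part of its order differed between the group means. BTG1, JUND and JUNB had the highest 3 means in both groups, at 123.5 (Empty) and 119 (labelled sgZHX3-3), 110 and 96.7, and 40.3 and 40.5 CPM per kilobase. Below them JUN (39.2), EGR1 (29.6) and ZFP36L2 (28.0) followed in Empty, whereas the order was ZFP36L2 (36.2), EGR1 (23.7) and JUN (20.2 CPM per kilobase) in the other group. JUN, which was not called, and ZFP36L2 thus stood in opposite order in the group means. This order rests on Empty 2 and 3, where JUN was at 145 and 184 CPM and ZFP36L2 at 101 CPM in each. In Empty 1 JUN was at 86.4 CPM and ZFP36L2 at 109 CPM, over exon lengths of 3540 and 3696 bases. Empty 1 thus had the order of the libraries labelled sgZHX3-3. In Empty 2 and 3 JUN per kilobase also stood above JUNB. Among the AP-1 subunits FOS (14.97 and 10.5) and FOSL2 (5.54 and 6.27 CPM per kilobase) came after the Jun genes in both groups. FOSB and FOSL1 were the lowest subunits, at 0.780 and 0.672 CPM per kilobase in Empty and 0.332 and 0.349 in the other group, with standard deviations over libraries that exceed the distance between them. NPAS4 was at 0.385 and 0.0734 CPM per kilobase. The genes FOSL1, KLF2, DUSP2 and NPAS4, 4 in all, had a mean below 1 CPM over the 6 libraries. The called genes were found at both ends of this range, from NPAS4 to ZFP36L2.

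The calls depended on which Empty libraries entered the comparison. In 7 of the 10 genes that fell Empty 1 was the lowest Empty library, as it was in 68.3% of all 807 genes called lower and in 40.6% of all tested genes. In 9 of these 10 Empty 1 lay above every library labelled sgZHX3-3, DUSP1 being the exception. The genes were called with Empty 1 included, so this position is largely built into the call and is no separate support. Without Empty 1, edgeR called 16 of the 35 lower, where 9.14% of all tested genes were lower, and 3 higher, where 10.9% were higher. The 8 genes gained were JUN, FOSL1, EGR3, KLF6, DUSP8 and ARC, lower, and NR4A1 and NR4A2, higher, and all 11 calls were kept. Without library 3 labelled sgZHX3-3, edgeR called 8 lower, where 2.54% of all tested genes were lower, and 1 higher, where 5.11% were higher. DUSP10, FOS, GADD45B and SIK1 were then lost, and DUSP8 and JUND gained. When Empty 2 and 3 were left out together, edgeR called 0 of the 35 in either direction, where 0.240% of all tested genes were lower and 1.26% higher; 7 had an unadjusted p below 0.05 and were lower, and 2 were higher. In that setting the lone Empty library is assumed to vary like the others, and the share of all tested genes below that unadjusted p was not counted. The fold changes of the 11 were −1.43 for NPAS4, −0.55 for FOSB, −0.41 for SIK1, −0.28 for EGR1, −0.24 for MAFF, −0.23 for GADD45B, −0.22 for IER2, −0.20 for DUSP10, −0.16 for FOS, −0.14 for DUSP1 and 0.30 for ZFP36L2 there. Their signs were bound to hold for all but DUSP1, since the groups of the others do not overlap.

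**Figure D3:**
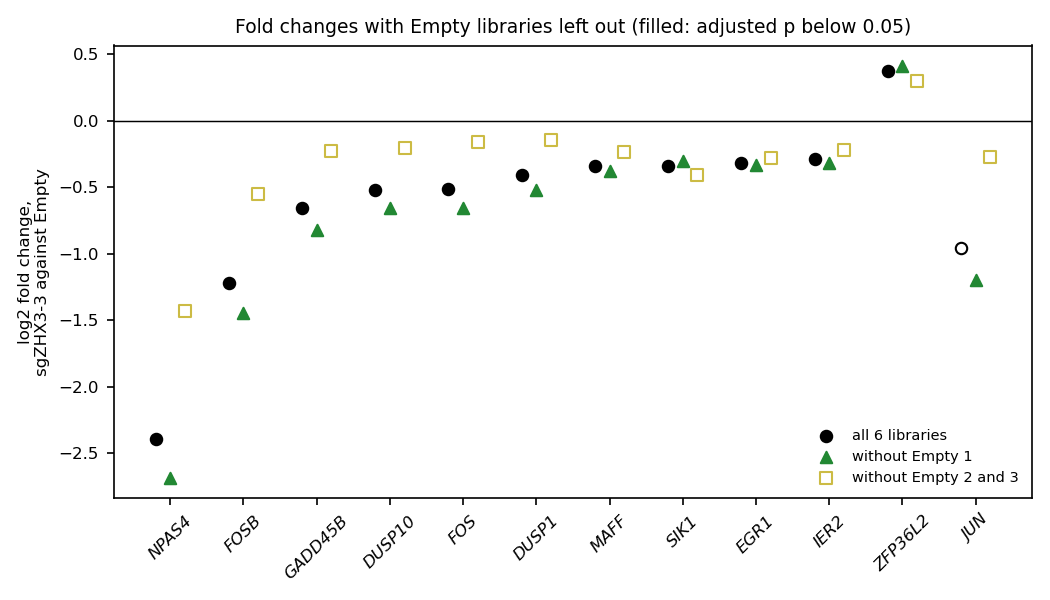
Log2 fold change (y axis) of the 11 called genes and JUN with all 6 libraries, without Empty 1 and without Empty 2 and 3; filled symbols have an adjusted p below 0.05. Each gene keeps its sign in all settings, as it must where the groups do not overlap, which holds for every gene shown but DUSP1. Without Empty 2 and 3 every gene shown moves toward 0, NPAS4 and FOSB included, except SIK1, which moves away from it.

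NPAS4 and ZFP36L2 passed whichever single library was removed, with adjusted p of at most 0.0104 and 0.0189. FOS and GADD45B kept it only when the library left out was Empty 1, with adjusted p otherwise from 0.0659 to 0.131 and from 0.0594 to 0.0818. EGR1 and MAFF lost it without Empty 3 (0.0968 and 0.0887) or sgZHX3-3 library 2 (0.0850 and 0.0671), and FOSB lost it without Empty 2 (0.0542) or sgZHX3-3 library 2 (0.0759). IER2 lost it without Empty 3, sgZHX3-3 library 1 or 2 (0.0730 to 0.156), DUSP10 without Empty 2, Empty 3 or sgZHX3-3 library 3 (0.0584 to 0.0742), SIK1 without Empty 2, Empty 3, sgZHX3-3 library 2 or 3 (0.0615 to 0.106) and DUSP1 without Empty 2, Empty 3, sgZHX3-3 library 1 or 2 (0.0910 to 0.148). No fold change of these 11 changed sign. Where the groups do not overlap, as in all of them but DUSP1, leaving out libraries cannot turn the sign, so this is no separate support.

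By their means, heat shock and NRF2 target genes ranked the Empty libraries in the same order as the immediate early genes. The mean level over the 35 immediate early genes, as a log2 distance from the mean of all libraries, was −0.02, 0.14 and 0.32 in Empty 1, 2 and 3 and −0.24, −0.12 and −0.07 in the libraries labelled sgZHX3-3. Over 12 heat shock genes it was −0.11, 0.49 and 0.63 against −0.34, −0.19 and −0.48, and over 11 NRF2 targets 0.05, 0.73 and 0.88 against −0.48, −0.48 and −0.69. The inducible chaperone HSPA1A was at 90.8, 186 and 240 CPM in Empty and between 68.0 and 77.2 CPM in the other group (−1.24, adjusted p = 0.122); it may share reads with its near-identical copy HSPA1B. By edgeR 1 of the heat shock genes fell (8.33%) and 10 of the NRF2 targets fell (90.9%), against 4.98% of all tested genes, and none rose. DESeq2 called 8 and 10 lower, against 5.97% of all tested genes. In 21 of the 35 immediate early genes (60%) Empty 1 was the lowest Empty library, against 40.6% of all tested genes. It was the lowest in all 12 heat shock genes and all 11 NRF2 targets. Their summed level was 5278 to 7263 CPM in Empty and 4994 to 5844 CPM in the other group for heat shock genes, and 1195 to 1896 CPM against 807 to 938 CPM for NRF2 targets. The part of this stress gene pattern in the fall of the immediate early genes was not tested.

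**Figure D4:**
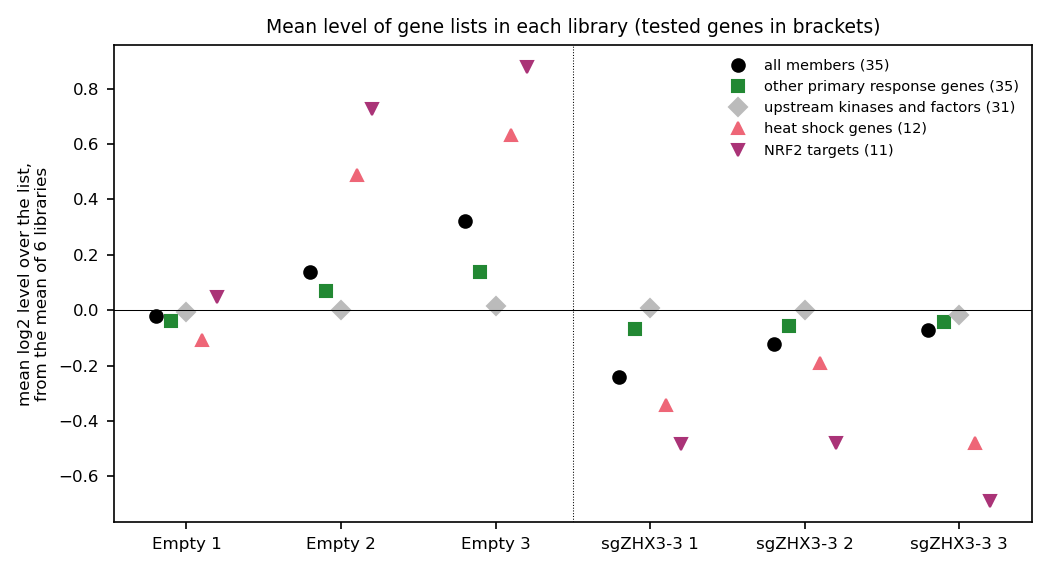
Mean log2 level (y axis, distance from the mean of the 6 libraries) over the tested genes of 5 lists, in each library (x axis). Heat shock genes and NRF2 targets lie highest in Empty 2 and 3, the immediate early genes (all members) rank the 3 Empty libraries in the same order with smaller distances, and the upstream kinases and factors stay near 0.

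Calls among genes that act upstream of the response were about as frequent as elsewhere on the higher side. Of 31 tested kinases and transcription factors that induce immediate early genes, 2 were higher (6.45%, against 7.11% of all tested genes) and 0 lower (against 4.98%) by edgeR. DESeq2 called 3 higher (against 8.25% of all tested genes) and 0 lower (against 5.97%). At an unadjusted p below 0.05, 5 were higher and 4 lower, but the share of all tested genes at that threshold was not counted. The higher ones were the ERK-activated kinase RPS6KA2 (0.37, adjusted p = 0.000790) and the CREB coactivator CRTC1 (0.26, adjusted p = 0.0231). SRF was at −0.16 (adjusted p = 0.165) and CREB1 at −0.20 (adjusted p = 0.0760). The list median was −0.04.

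Other bZIP factors, some of which pair with AP-1 proteins, had 15 tested members. By edgeR 4 were higher (26.7%, against 7.11% of all tested genes) and 0 lower (against 4.98%). At an unadjusted p below 0.05, 5 were higher and 1 lower, again without a count over all tested genes. DESeq2 called 4 higher (against 8.25% of all tested genes) and 0 lower (against 5.97%). Among the 4 were MAF (0.56, adjusted p = 0.000669), MAFA, an activator of the insulin gene in mature beta cells (0.60, adjusted p = 0.0490), and BATF2 (0.65, adjusted p = 0.0218). ATF3, itself an immediate early stress factor, was at 62.1, 85.5 and 90.9 CPM against 63.9, 64.1 and 51.3 CPM and did not pass (−0.41, adjusted p = 0.119).

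A further list of 37 genes of the primary response, of which 35 were tested, held both directions. By edgeR 8 were lower (22.9%, against 4.98% of all tested genes) and 4 higher (11.4%, against 7.11%), with a median of −0.18. Those with the smallest adjusted p were ID1, an inhibitor of bHLH factors and a BMP target, which rose (0.77, adjusted p = 0.00307), the cell cycle cofactor SERTAD1 (−0.62, adjusted p = 0.00890), the ERK phosphatase DUSP5 (−0.36, adjusted p = 0.0161), the small GTPase RHOB (−0.36, adjusted p = 0.0196) and KLF10 (−0.41, adjusted p = 0.0203). DUSP5 fell from 61.9, 68.6 and 73.3 CPM to 47.8, 50.8 and 59.7 CPM. RHOB went from 46.6, 53.0 and 62.7 CPM to 42.3, 42.4 and 41.5 CPM, with Empty 1 nearest to the second group as for FOS.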

How the data were processed

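RNA from 6 EndoC-βH1 cultures was sequenced after preparation with a stranded kit, per the labels' protocols. STAR, featureCounts and the build hg38 are named in the submitters' processing notes. Tool versions, annotation, use of strand and handling of multi-mapped reads are unknown (not given in the sources used here). Per the file headers, the authors deposited unnormalised whole-number counts by gene symbol; columns were joined to samples by group and replicate letter.

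Genes were kept by filterByExpr (minimum count 10, minimum total 15), scaled by TMM and compared with edgeR's robust quasi-likelihood test, group as the only term, with Benjamini-Hochberg adjustment over 16199 genes, called at 0.05. Standard errors were derived as the fold change over the root of F, and CPM uses TMM-scaled totals. The common biological coefficient of variation was 6.91%. Symbols were matched to GENCODE 29 (23925 of 26485), and promoter windows come from RefSeq. The procedure was tested on simulated counts. The members and lists were chosen with earlier results of these data known; all members, ZHX3 and up to 5 called genes per further list may be named, and ATF3, SRF, CREB1, HSPA1A, the marker genes and the genes that overlap members are named outside that rule. A called gene that the rule would name is not reported here. Alternatives were RLE factors, library totals, 2 other filters, DESeq2, limma-voom, a replicate block, left-out libraries, offsets for gene span or for transcript length and GC content, and an adjusted p below 0.01. Software comprised Python 3.11.15 with matplotlib 3.10.9 and R 4.3.3 with DESeq2 1.42.0, limma 3.58.1 and edgeR 4.0.16.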

Additional observations from a re-analysis of the deposited data

How the results depend on the processing

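The 10 lower and 1 higher genes were 10 and 1 with RLE factors and with limma-voom, 12 and 1 with library totals only, 11 and 1 without a filter, 9 and 1 with a filter of 1 CPM in 3 libraries (NPAS4 is then not tested), and 15 and 1 with DESeq2. They were 9 and 2 with the gene span trend removed (FOSL2 gained, FOS lost), 11 and 1 with transcript length and GC trends removed (FOS, DUSP1 and GADD45B lost; DUSP8, EGR3, FOSL1 and JUND gained), 1 and 1 at an adjusted p below 0.01, and 0 and 0 with Empty 2 and 3 both left out. With any 1 library left out they ranged from 2 to 16 and from 1 to 3. The low of 2 came without Empty 3 or without sgZHX3-3 library 2. Lower calls over all tested genes also dropped there, from 807 of 16199 to 184 of 16394 and 211 of 16327. Higher calls over all tested genes went from 1151 to 474 and 492. The median over the set stayed between −0.29 and −0.12 in every setting. Without a filter FOS (adjusted p = 0.0823) and DUSP1 (0.0504) were not called. Over all tested genes the lower and higher calls were 778 and 1173 with RLE factors and 826 and 1165 with limma-voom. They were 1272 and 904 with library totals only, 845 and 1198 without a filter, and 795 and 1138 with the 1 CPM filter. DESeq2 gave 967 and 1336. Removing the span trend gave 743 and 1009, and removing length and GC trends 885 and 1259. At an adjusted p below 0.01 they were 194 and 467.

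With the replicate number as a block 9 were lower and 1 higher, SIK1 being lost (adjusted p = 0.0822), and over all tested genes 239 were lower and 516 higher in place of 807 and 1151. Same-numbered libraries did not deviate together (r of −0.138, 0.0685 and −0.142 over genes), so the numbers were not taken as pairs.

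Some genes not called with all 6 libraries changed sign, none of them called where the sign differed; ARC, at −0.48 with all libraries and called without Empty 1 (−0.74, adjusted p = 0.0401), was not near 0. With library totals only JUNB was at −0.029, DUSP2 at −0.021 and MAFK at −0.035; with limma-voom DUSP2 was at −0.14; with the replicate block DUSP2 was at −0.0030 and MAFK at −0.0017. With the span trend removed JUNB was at −0.022 and DUSP2 at −0.011; with length and GC trends removed BTG1 was at 0.048, JUNB at −0.11, DUSP2 at −0.091 and MAFK at −0.094. With Empty 2 and 3 both left out EGR2 was at 0.20, JUNB at −0.041, ZFP36 at 0.20, MAFK at −0.011 and ARC at 0.29. With any 1 library left out BTG1 ranged from −0.092 to 0.0091, EGR4 from −0.090 to 0.027, DUSP2 from −0.72 to 0.40, JUNB from −0.11 to 0.084, MAFK from −0.058 to 0.053, EGR2 from −0.28 to 0.066 and ZFP36 from −0.24 to 0.049. The cause of these shifts was not tested. Depth limits DUSP2, KLF2 and NPAS4, which rest on few counts.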
